A study of Mus musculus with 6 samples.

Results

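Retinoid and alcohol dehydrogenase genes were followed in embryonic mouse long bone with and without Stat3 in limb mesenchyme. The group holds 10 genes of the 23930 amplicons in the expression table: the alcohol dehydrogenases Adh7, Adh1 and Adh5, the retinol dehydrogenase Rdh10, the retinaldehyde dehydrogenases Aldh1a1, Aldh1a2 and Aldh1a3, the retinoic acid carriers Crabp1 and Crabp2, and the retinoic acid hydroxylase Cyp26b1. Members were matched by gene symbol. They were selected on known roles together with the knockout against control differences of these same 6 libraries, in which Adh7 had one of the greatest falls. Their differences are therefore given as a description, with no p-value, and nothing is read from how many of them pass a threshold.

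RNA came from the humerus shaft at stage E16.5. The knockout group (3 libraries) was Prrx1Cre; Stat3C/C, with both conditional Stat3 alleles and the driver. The control group (3 libraries) was Stat3C/+, which carries 1 conditional allele and no driver, although its label reads wild type. Both groups thus carry a conditional allele, and the groups differ in the driver as well as in the number of such alleles. Prrx1Cre is active in limb bud mesenchyme, which gives rise to bone, cartilage, tendon and connective tissue. Blood cells, endothelium and muscle fibres do not descend from it, so they were not targeted directly. The labels do not say whether replicates were separate embryos or litters. The p-values thus set a group difference against the spread of these samples only, some of which may be technical. Values are reads scaled to the library total (RPM) for 1 short amplified target per gene. The amplicons of different genes amplify with unequal efficiency, and for this reason levels are compared between libraries and not between genes.

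Retinoic acid is made from vitamin A in a pair of oxidation steps. Retinol is first oxidised to retinaldehyde, in the mouse embryo chiefly by Rdh10 and also by alcohol dehydrogenases, and retinaldehyde is then oxidised to retinoic acid by the Aldh1a enzymes. Crabp proteins bind retinoic acid in the cytoplasm, Cyp26 enzymes inactivate it, and retinoic acid receptors paired with retinoid X receptors carry its signal to genes. In the developing limb, retinoic acid is kept low where cartilage forms, and its signalling acts on chondrocyte and osteoblast differentiation. Adh7 is the class IV enzyme, known for retinol oxidation and for its expression in stomach and other epithelia. Adh1 is the class I enzyme of liver, which oxidises ethanol and excess retinol, and Adh5 is the widely expressed class III enzyme, which clears formaldehyde bound to glutathione.

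The 3 alcohol dehydrogenase genes lie in 1 cluster on chromosome 3, and their start regions are shown because the genes are neighbours whose values differed between the groups in unlike ways. The sequences are RefSeq windows on GRCm38.p6, plus strand, running 250 bases before to 50 bases after a start that RefSeq annotates. They are Adh7 at chr3:138217523-138217822, Adh1 at chr3:138277335-138277634 and Adh5 at chr3:138442843-138443142, the Adh5 window that belongs to the GENCODE gene start. The Adh1 window belongs to a start inside the longer GENCODE gene given below, so the sequence at the GENCODE start of Adh1 was not searched. Capitals mark the letters matched by a motif search on both strands: 1 retinoid receptor half-site (TGAACT) and 1 reversed TATAAA in Adh7, and 3 CCGCCC runs in Adh5.
Adh7: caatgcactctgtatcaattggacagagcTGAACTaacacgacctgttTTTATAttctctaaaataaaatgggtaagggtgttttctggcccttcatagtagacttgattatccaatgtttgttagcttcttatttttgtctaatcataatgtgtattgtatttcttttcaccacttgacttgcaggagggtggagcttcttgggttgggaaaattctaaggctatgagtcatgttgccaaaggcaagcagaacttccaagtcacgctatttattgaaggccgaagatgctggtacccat
Adh1: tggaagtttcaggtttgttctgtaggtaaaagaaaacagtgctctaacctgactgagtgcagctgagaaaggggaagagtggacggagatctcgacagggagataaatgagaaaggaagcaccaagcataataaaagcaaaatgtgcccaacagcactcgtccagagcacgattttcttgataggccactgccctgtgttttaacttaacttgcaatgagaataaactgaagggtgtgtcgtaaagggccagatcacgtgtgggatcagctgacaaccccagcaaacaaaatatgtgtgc
Adh5: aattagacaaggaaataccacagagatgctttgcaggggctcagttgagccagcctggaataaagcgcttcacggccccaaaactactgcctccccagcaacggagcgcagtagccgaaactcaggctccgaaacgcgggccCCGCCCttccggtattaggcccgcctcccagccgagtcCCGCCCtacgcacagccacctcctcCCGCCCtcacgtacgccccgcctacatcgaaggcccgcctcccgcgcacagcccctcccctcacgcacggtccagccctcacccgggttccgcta

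The motifs searched were the STAT site letters TTCNNNGAA and TTCNNNNGAA, the half-site in its forms AGGTCA, the variant AGTTCA, the variant GGGTCA and the variant GGTTCA, direct repeats of that half-site with spacers of 1, 2 or 5 bases, TATAAA and CCGCCC. The TTCNNNGAA letters were in none of the 3 printed windows and are in 8.30% of the 32851 RefSeq windows of this length. The longer TTCNNNNGAA was also in none of them and is in 6.95% of windows. The half-site match in Adh7 lay at position -221 from the start site, and 43.7% of windows hold such a match. The reversed TATAAA in Adh7 lay at position -202, and 13.6% of windows hold one on either strand. The CCGCCC runs of Adh5 lay at positions -108, -70 and -45, and 35.7% of windows hold at least 1. No direct repeat with any of the 3 spacers was found in the windows of the 7 matched members, and such repeats are in 0.222%, 0.268% and 0.0974% of windows for spacers of 1, 2 and 5 bases. The Adh5 window had a GC content of 65.0%, against 39.3% for Adh7, 45.3% for Adh1 and a median of 52.7% over all windows. A match is a description of the letters and not a bound site.

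Of the 10 genes, Adh7 was lower in knockout bone by 8.28-fold, and the other 9 differed by 1.29-fold or less in their mean RPM. Of its neighbours in the cluster, Adh1 was at a similar level in both groups and Adh5 was 1.14 times the control level. The enzymes of retinoic acid synthesis had means between 0.793 and 1.08 times those of controls, the carriers had means 1.12 and 1.29 times those of controls, and Cyp26b1 was 0.919 times the control level. RNA was taken from whole shafts, so fewer cells expressing a gene and less RNA per cell cannot be told apart.

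**Figure D1:**
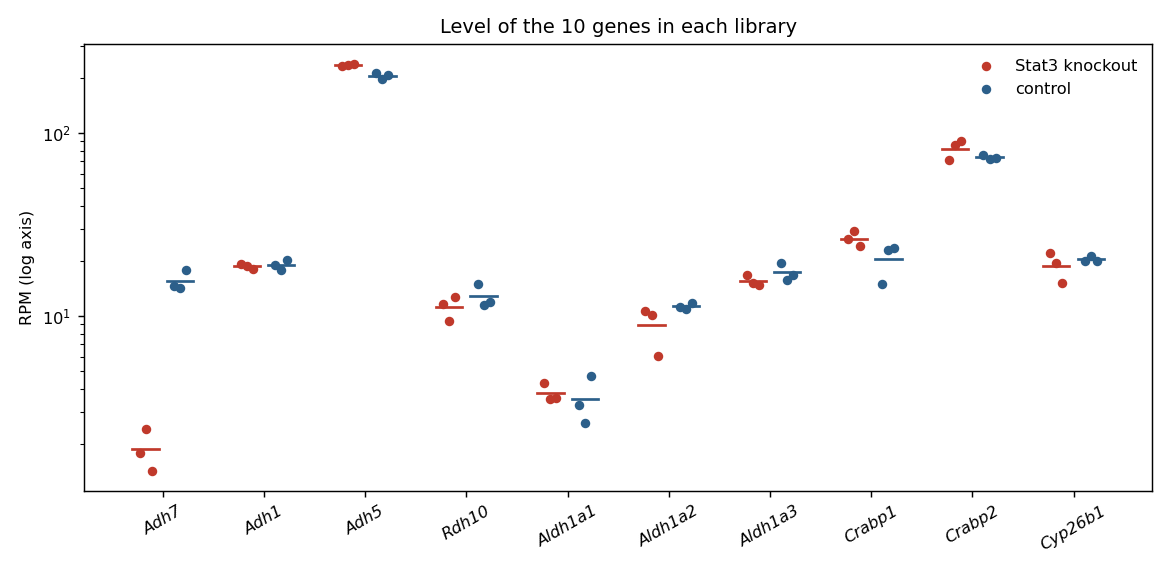
RPM of the 10 genes in each library on a log axis, with 3 Stat3 knockout points left of 3 control points for each gene and a line at each mean. The knockout libraries sit at 1.43 to 2.41 RPM for Adh7, below the controls at 14.2 to 17.7 RPM, while the groups of the other genes lie close together or overlap.

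Adh7 (AMPLAdh7_4_1.10744, GRCm38 chromosome 3, 138217760 to 138233382, plus strand) was read at 1.78, 2.41 and 1.43 RPM in the knockout libraries and at 14.6, 14.2 and 17.7 RPM in the control libraries. Every knockout library was far below every control library, and the gap between the groups was wider than the range within either. The values rest on 21, 22 and 14 reads in the knockout libraries and on 170, 190 and 216 reads in the control libraries. The mean was 1.87 ± 0.497 RPM in knockout bone and 15.5 ± 1.94 RPM in control bone (SD, n = 3 each). On the log2(RPM + 1) scale, which understates the change of low genes, the difference was -2.53 ± 0.17 (SE). Adh7 ranked 16th of 12846 genes by the size of this difference and 7th among the falls. A difference of at least 4-fold on this scale was reached by 20 genes, which is 0.156% of those tested. With a pseudocount of 0.1 RPM in place of 1 RPM the Adh7 difference was -3.01, and with 10 RPM it was -1.10.

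Adh1, the class I enzyme (138260991 to 138290698, its start 27609 bases beyond the end of Adh7), had 19.1, 18.8 and 18.1 RPM in knockout bone and 19.0, 17.9 and 20.3 RPM in control bone. The knockout values lay within the range of the controls, and the log2 difference was -0.02 ± 0.12 (SE, n = 3 each). Adh5, the formaldehyde-clearing class III enzyme (138443093 to 138455499), had 233, 235 and 237 RPM in knockout bone and 213, 196 and 206 RPM in control bone. All 3 knockout libraries were above all 3 controls, by a small margin. The Adh5 mean was 235 ± 2.35 RPM in knockout bone and 205 ± 8.54 RPM in control bone (SD, n = 3 each), a log2 difference of 0.20 ± 0.07 (SE).

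Ratios taken inside each library do not depend on its scaling. The ratio of Adh7 to Adh1 was 0.0929, 0.128 and 0.0791 in the knockout libraries and 0.769, 0.795 and 0.874 in the control libraries. The groups were far apart on this ratio, and the controls agreed closely with each other. Adh7 to Adh5 gave 0.00798 ± 0.00213 in knockout bone and 0.0756 ± 0.00919 in control bone (SD, n = 3 each). The ratio of the neighbours, Adh1 to Adh5, was 0.0796 ± 0.00307 in knockout bone and 0.0928 ± 0.00489 in control bone (SD, n = 3 each), also without overlap but with a much smaller gap.

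**Figure D2:**
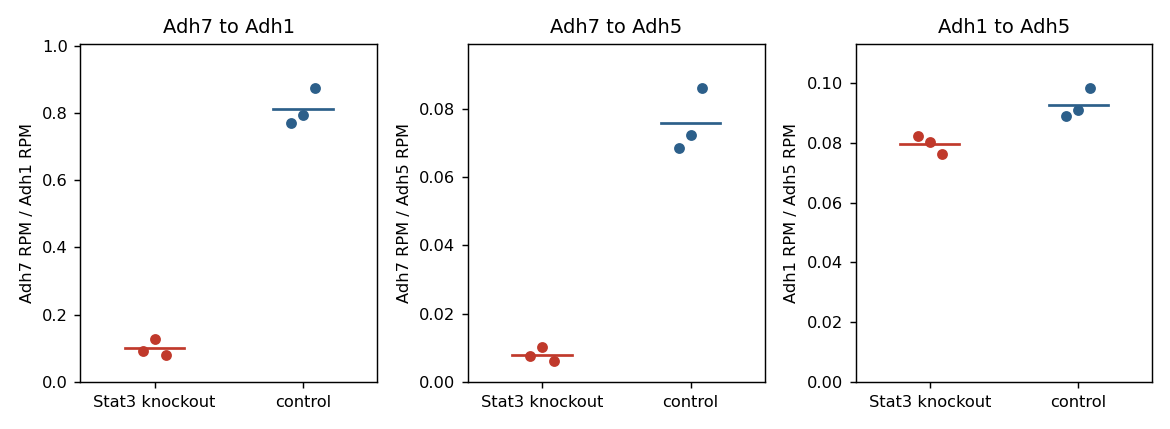
Ratios of RPM between the 3 alcohol dehydrogenase genes within each library, with the Stat3 knockout left of the control, points for libraries and lines for means, on axes that start at 0. The Adh7 to Adh1 ratio lies at 0.0791 to 0.128 in the knockout and 0.769 to 0.874 in the control, whereas the Adh1 to Adh5 means are 0.0796 and 0.0928.

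The other alcohol dehydrogenase genes of the cluster were barely read. Adh4 and Adh6a had 0 reads in all 6 libraries, and Adh6b had at most 5 reads in any. The coding sequence of Adh7 is 68.7% identical to that of Adh1, with a longest shared run of 14 bases, and 66.0% identical to that of Adh5, with a longest shared run of 23 bases. No source used here places the amplicons within the genes. A gene on the opposite strand, 0610031O16Rik (138210716 to 138240405, minus strand), spans the whole of Adh7. Its own amplicon read 1.95, 3.51 and 1.64 RPM in knockout bone and 1.29, 1.94 and 1.07 RPM in control bone, with overlapping groups. Strand was not stated for the counting, so reads of this gene and of Adh7 cannot be told apart where they overlap.

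Genes whose start lay within 1 Mb of the 3 alcohol dehydrogenase members were taken as the neighbourhood. Of the 13 tested neighbours that are not members, 1 was higher, 0 were lower and 12 did not pass the test (limma, Benjamini-Hochberg adjusted p under 0.05), where 16.7% of all tested genes were called. All knockout libraries lay below all controls for 6 of the 13 neighbours, against 21.9% of all tested genes, and above them for 1, against 11.9%. The 6 were Ddit4l, Dnajb14, Dapp1, Gm5105, Mttp and Trmt10a, which are named here after their values were seen. The log2 differences of the 13 ran from -0.60 to 0.48 with a median of -0.10, against -0.06 over all genes tested. The gene that passed was Metap1 (chromosome 3, 138458956 to 138489515), a methionine aminopeptidase that trims new proteins, which had 115, 116 and 103 RPM in knockout bone and 78.8, 77.7 and 81.1 RPM in control bone. Its values did not overlap, and its log2 difference was 0.48 ± 0.09 (SE, limma adjusted p = 0.000521). The lowest log2 difference was that of Mttp, a lipid transfer protein gene named here for its place at the end of the range, at 0.898 ± 0.194 RPM in knockout bone and 1.86 ± 0.102 RPM in control bone (SD, n = 3 each).

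**Figure D3:**
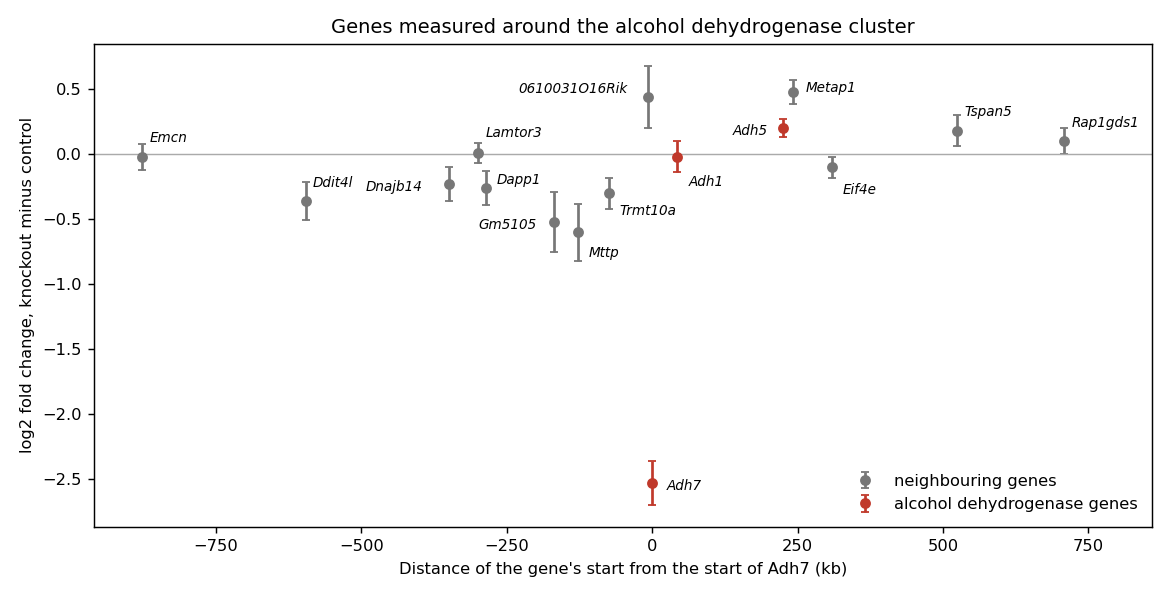
Log2 difference (knockout minus control, ± SE) of each tested gene near the cluster against the distance of its start from the start of Adh7 in kb. Adh7 lies at -2.53, while every other gene shown lies between -0.60 and 0.48.

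The step from retinol to retinaldehyde is represented by Rdh10 (chromosome 1, 16105774 to 16133734), the main embryonic retinol dehydrogenase. Rdh10 had 11.6, 9.42 and 12.8 RPM in knockout bone and 15.0, 11.4 and 11.9 RPM in control bone. The groups overlapped, and the log2 difference was -0.17 ± 0.15 (SE, n = 3 each).

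Aldh1a2 (chromosome 9, 71215789 to 71296243), the main retinoic acid-making enzyme of the early embryo, had 10.7, 10.2 and 6.03 RPM in knockout bone and 11.2, 10.9 and 11.8 RPM in control bone. All knockout values were below the controls, but knockout replicates 1 and 2 only narrowly, and replicate 3 was well below. The log2 difference was -0.34 ± 0.17 (SE, n = 3 each), and -0.11 without knockout replicate 3. Aldh1a3 (chromosome 7, 66390890 to 66427517), which makes retinoic acid in eye and nose, had 16.8, 15.1 and 14.7 RPM in knockout bone and 19.4, 15.7 and 16.8 RPM in control bone. These groups overlapped, with a log2 difference of -0.14 ± 0.13 (SE). Aldh1a1 (chromosome 19, 20492715 to 20643465), which acts in the dorsal retina and liver, had 4.32, 3.51 and 3.58 RPM in knockout bone and 3.26, 2.62 and 4.68 RPM in control bone. Its groups overlapped, and its log2 difference of 0.11 ± 0.20 (SE) was smaller than its error. The Aldh1a1 coding sequence is 91.6% identical to that of its copy Aldh1a7, with a shared run of 100 bases, so reads of the pair could be exchanged and the Aldh1a1 value is uncertain in that respect.

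The cytoplasmic carrier Crabp1 (chromosome 9, 54764748 to 54773110) had 26.3, 29.1 and 24.02 RPM in knockout bone and 14.9, 22.8 and 23.7 RPM in control bone. The lowest knockout library stood just above the highest control, and control replicate 1 was low. Its mean was 26.5 ± 2.57 RPM in knockout bone and 20.5 ± 4.80 RPM in control bone (SD, n = 3 each), a log2 difference of 0.38 ± 0.14 (SE), and 0.18 without control replicate 1. Crabp2 (chromosome 3, 87948666 to 87953376), which delivers retinoic acid to its receptors, had 70.8, 85.5 and 90.4 RPM in knockout bone and 75.6, 72.4 and 72.8 RPM in control bone. Knockout replicate 1 lay below all controls while the other two lay above them, and the log2 difference was 0.15 ± 0.10 (SE).

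Cyp26b1 (chromosome 6, 84571414 to 84593908), which breaks down retinoic acid in the limb, had 22.0, 19.4 and 15.1 RPM in knockout bone and 20.1, 21.4 and 20.04 RPM in control bone. The knockout libraries fell on both sides of the controls, with a log2 difference of -0.13 ± 0.13 (SE, n = 3 each), and 0.01 without knockout replicate 3. That library was the lowest of the 6 for Adh7, Aldh1a2, Aldh1a3 and Cyp26b1 and the highest for Adh5 and Crabp2. It was also the lowest for Stat3, whose amplicon is not placed against the deleted exons, and a link between these values was not tested.

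**Figure D4:**
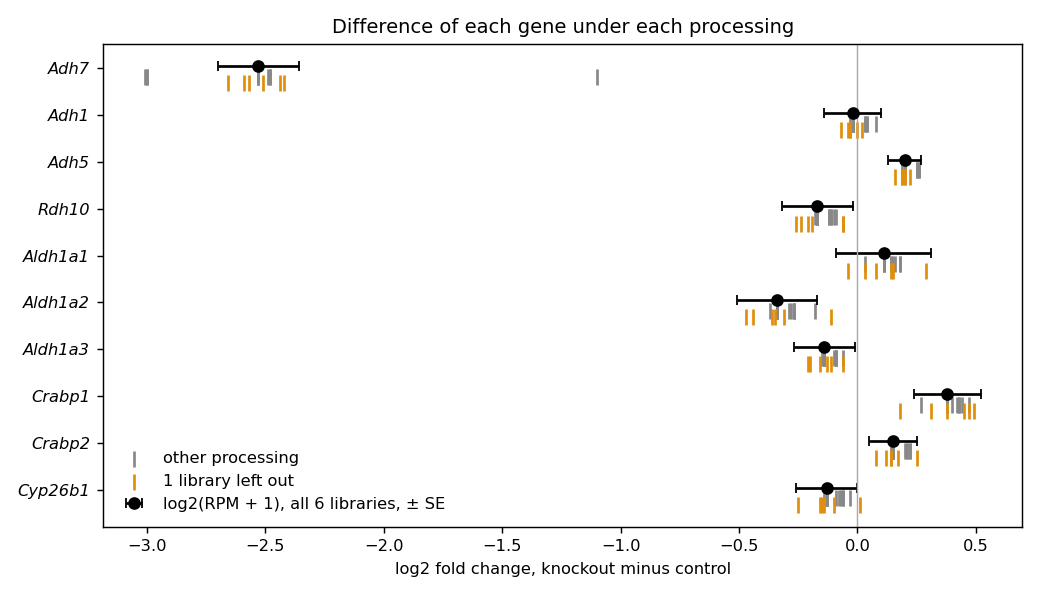
Log2 difference (knockout minus control) of each of the 10 genes, with a black point and bar for the value ± SE over all 6 libraries, grey marks for other processing and orange marks for values with 1 library left out. Adh7 stays at or below -1.10 in every case, and every value of the other 9 genes lies between -0.47 and 0.49.

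Counted over the group, 1 of the 10 genes, Adh7, was past the threshold of adjusted p under 0.05 over all genes (limma), where 16.7% of the 12846 tested genes were called, 5.71% higher and 11.0% lower. This contrast was known when the genes were chosen, so that count and those under other settings are no evidence about the group. The libraries of the groups did not overlap for 4 of the 10 genes, with Adh5 and Crabp1 higher and Adh7 and Aldh1a2 lower, against 33.8% of all tested genes, 11.9% higher and 21.9% lower. The median log2 difference of the 10 genes was -0.08, that of the 9 genes without Adh7 -0.02, and that of all tested genes -0.06. Likewise as a description, the number of the 10 past the threshold was 3 with TMM factors and with median-of-ratios factors, where 15.3% of all tested genes were called in each case, and 3 with edgeR on the recovered whole reads, where 15.4% were called. It was 2 with quantile normalization and with DESeq2, where 14.4% were called in each case, and 2 with the replicate number as a block, where 19.2% were called.

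The genes whose values over the 6 libraries were most like those of Adh7, by Pearson correlation of log2(RPM + 1), were Ocm (r = 0.998), Slc8a3 (r = 0.997), Chsy1 (r = 0.997), Nupl2 (r = 0.996) and Lipi (r = 0.996). The points are 3 low knockout and 3 high control libraries, so any gene that separates the groups with little scatter gives a high r. The likeness thus chose genes that differ between the groups, and their values are a description of 6 points that share their scaling, with no test. Slc8a3, a sodium-calcium exchanger, had 10.8, 11.3 and 10.7 RPM in knockout bone and 22.2, 21.2 and 23.0 RPM in control bone, a log2 difference of -0.95 ± 0.12 (SE). Lipi, a lipase, had 5.59, 6.25 and 5.72 RPM in knockout bone and 11.9, 12.6 and 14.0 RPM in control bone, a log2 difference of -1.01 ± 0.15 (SE). Chsy1, a chondroitin synthase, averaged 46.1 ± 2.32 RPM in knockout bone and 68.4 ± 1.21 RPM in control bone (SD, n = 3 each). Ocm, a calcium-binding protein of the parvalbumin family, and Nupl2, a nucleoporin, had log2 differences of -0.40 ± 0.20 and -0.42 ± 0.17 (SE). All 5 differed less than Adh7.

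Other genes of retinoid, aldehyde and alcohol metabolism were taken from 7 lists with 79 genes in all, of which 72 were in the table and 49 had a mean of at least 1 RPM and were tested. Of these 49, 1 was higher in the knockout, 4 were lower and 44 did not pass the test, or 10.2% called against 16.7% of all tested genes. The list of retinol uptake, transport and storage had 0 of 6 tested genes past the threshold. Retinol and retinaldehyde interconversion had 0 higher and 1 lower of 8, and nuclear receptors and cofactors 0 higher and 2 lower of 13. The retinoic acid induced genes had 1 higher and 0 lower of 11. Aldehyde dehydrogenase relatives had 0 higher and 1 lower of 11, and ethanol and formaldehyde handling 0 of 6. No gene of the 3 listed for retinoic acid inactivation and carriage could be tested. The count of lower genes was 0 without control replicate 1 and 2 without control replicate 2 or knockout replicate 1.

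Tgm2, a transglutaminase known as a retinoic acid induced gene, had 66.3, 67.4 and 69.9 RPM in knockout bone and 53.3, 51.0 and 53.6 RPM in control bone. All knockout libraries were above all controls, and the log2 difference was 0.36 ± 0.09 (SE, limma adjusted p = 0.00835). The other induced genes named did not pass the test, with log2 differences of 0.19 ± 0.12 for Rarb, -0.15 ± 0.22 for Stra6 and -0.14 ± 0.12 for Dhrs3 (SE, n = 3 each). Stra6 is the retinol uptake receptor, and Dhrs3 returns retinaldehyde to retinol. Cyp26a1, another retinoic acid hydroxylase, was too low to test, at 1.10, 0.877 and 1.23 RPM in knockout bone and 0.859, 0.972 and 0.164 RPM in control bone. Fabp5 was not analysed here.

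The nuclear receptor coactivators Ncoa1 and Ncoa2 were lower in knockout bone. Ncoa1 had 16.3, 18.6 and 17.4 RPM in knockout bone and 26.8, 23.2 and 23.3 RPM in control bone, a log2 difference of -0.46 ± 0.12 (SE, limma adjusted p = 0.0104). Ncoa2 had 36.2, 40.8 and 41.6 RPM in knockout bone and 58.6, 54.4 and 45.0 RPM in control bone, a log2 difference of -0.40 ± 0.11 (SE, limma adjusted p = 0.0140). Neither gene's groups overlapped, and neither call held without control replicate 1 (limma adjusted p = 0.0630 for Ncoa1 and 0.0870 for Ncoa2). The Ncoa2 call was also lost without knockout replicate 1 (limma adjusted p = 0.0575) and without control replicate 2 (limma adjusted p = 0.0709). With no trend it was lost too (limma adjusted p = 0.0756). Over all alternatives the adjusted p ran from 0.00914 to 0.0630 for Ncoa1 and from 0.00394 to 0.0870 for Ncoa2. The receptors themselves did not pass the test. The log2 differences of the retinoic acid receptors were -0.02 ± 0.09 for Rara, 0.19 ± 0.12 for Rarb and 0.06 ± 0.09 for Rarg (SE). Those of the retinoid X receptors were -0.01 ± 0.08 for Rxra, 0.10 ± 0.10 for Rxrb and 0.10 ± 0.11 for Rxrg (SE), and the signs of Rara and Rxra turned under other scalings.

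Akr1a1, an aldehyde reductase that can act on retinaldehyde, had 420, 475 and 449 RPM in knockout bone and 551, 558 and 487 RPM in control bone. The groups did not overlap, and the log2 difference was -0.25 ± 0.08 (SE, limma adjusted p = 0.0291). The call was lost in 9 of 17 alternatives: without knockout replicate 1, control replicate 1 or control replicate 2, with no filter, with no trend, with TMM or median-of-ratios factors, and with edgeR and DESeq2. The adjusted p over all alternatives ran from 0.0122 to 0.155. Aldh1l2, the mitochondrial formyltetrahydrofolate dehydrogenase, had 26.7, 28.5 and 26.4 RPM in knockout bone and 42.4, 34.9 and 32.6 RPM in control bone. Its log2 difference was -0.41 ± 0.11 (SE, limma adjusted p = 0.0159). That call was lost in 3 of 17 alternatives: without control replicate 1 (limma adjusted p = 0.109), with quantile normalization (limma adjusted p = 0.0525) and with no trend (limma adjusted p = 0.0637). Over all alternatives the adjusted p for Aldh1l2 ran from 0.0103 to 0.109. Aldh2, which clears acetaldehyde, did not pass, with a log2 difference of 0.17 ± 0.08 (SE). The retinol transport protein Rbp4 had 58.1, 61.3 and 63.7 RPM in knockout bone and 50.2, 54.1 and 49.0 RPM in control bone. Its groups did not overlap, and its log2 difference of 0.25 ± 0.09 (SE) missed the threshold (limma adjusted p = 0.0660). Rbp4 passed it with TMM factors (limma adjusted p = 0.0290), median-of-ratios factors (limma adjusted p = 0.0267) and quantile normalization (limma adjusted p = 0.0269). It also passed with edgeR (edgeR adjusted p = 0.0282) and DESeq2 (DESeq2 adjusted p = 0.0210). Over all alternatives its adjusted p ran from 0.0210 to 0.160.

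**Figure D5:**
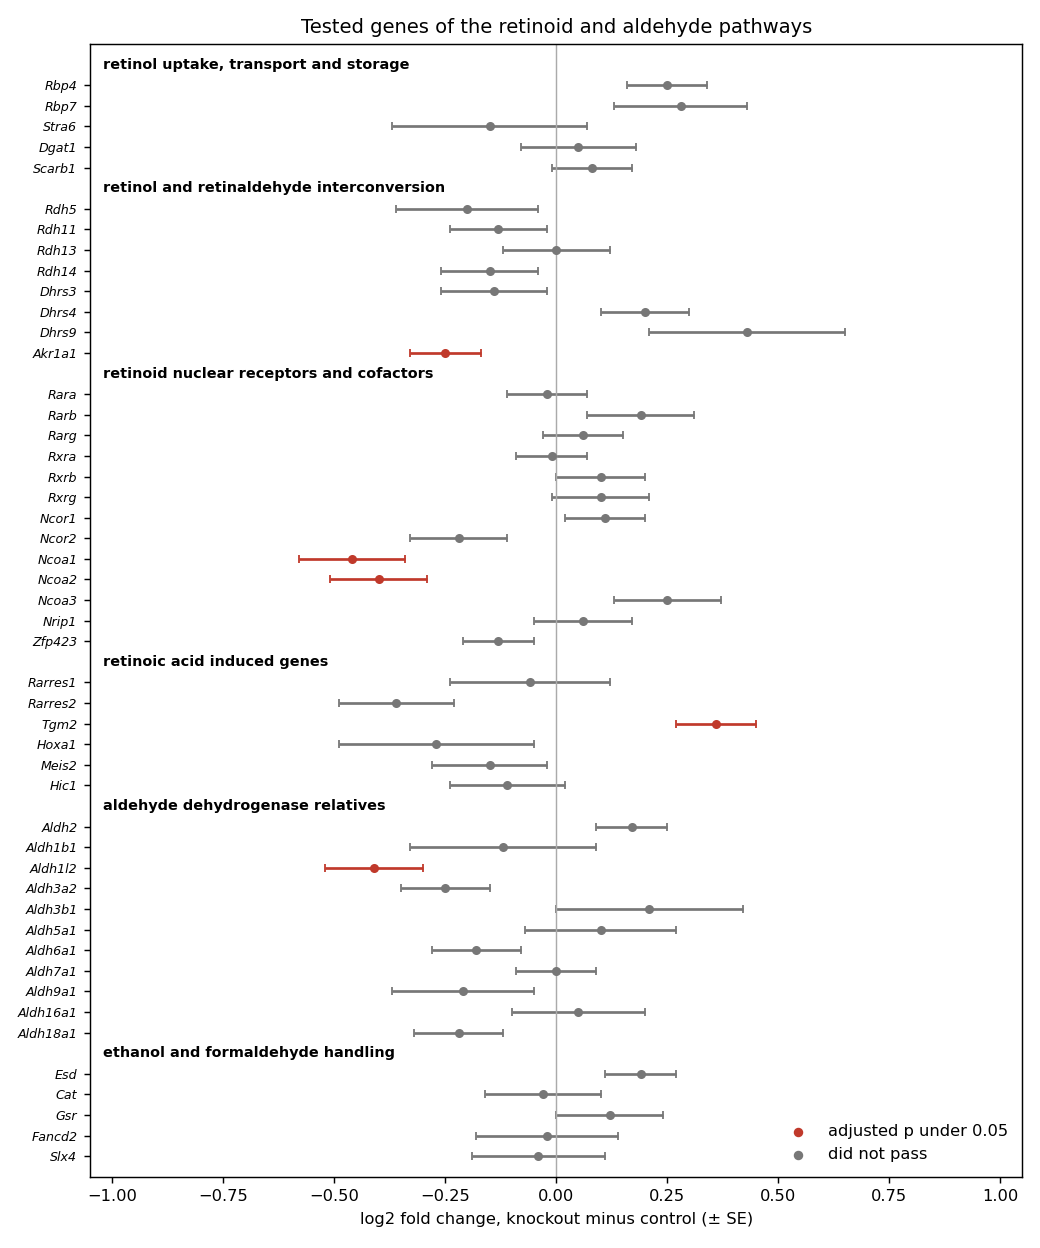
Log2 difference (knockout minus control, ± SE, n = 3 each) of other pathway genes tested, grouped by list, with genes past the threshold in red and the others in grey. A single red point, Tgm2, lies right of 0, and 4 lie left of it.

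The knockout libraries held 11809106, 9126493 and 9784046 reads, and the control libraries 11640697, 13376550 and 12175801. Amplicons with a read numbered 17049, 16747 and 16862 in the knockout libraries and 17337, 17351 and 17144 in the controls. The part of depth in this gap was not tested. The Stat3 amplicon had 208, 201 and 170 RPM in knockout bone and 211, 201 and 211 RPM in control bone (log2 difference -0.11 ± 0.08, SE, limma adjusted p = 0.380), and since no source used here places it against the deleted exons, it checks nothing about the labels. In all, 733 genes were higher and 1409 lower, so 34.2% of the calls were higher with the deposited scaling, against 52.9% with TMM factors, 55.1% with median-of-ratios factors, 52.7% with quantile normalization, 53.3% with edgeR and 56.3% with DESeq2.

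Markers of the cell types a shaft can hold differed between the groups as well. Their counts stand beside 5.71% of all tested genes called higher and 11.0% called lower. All ranges are summed RPM over a list's genes, so the most abundant amplicons weigh most in them. The part of these markers in the Adh7 difference was not tested. Osteoblast markers were present, as a bone sample should show, with 7 of 8 tested genes lower and sums of 27300 to 32200 RPM in knockout bone and 31400 to 35500 RPM in control bone (log2 difference -0.06 for Col1a1 and -1.04 for Ibsp). Col1a1, with means of 27700 RPM in knockout bone and 28700 RPM in control bone, made up most of these sums. The median log2 difference of the 8 tested genes was -0.69. Chondrocyte markers had 6 of 9 lower, with 406 to 453 RPM in knockout bone and 586 to 622 RPM in control bone (-0.17 for Col2a1 and -0.18 for Col10a1). Neither Col2a1 nor Col10a1 was called, and the median log2 difference of the 9 tested genes was -0.39. Neutrophil markers had 6 of 6 lower, with 39.2 to 43.4 RPM in knockout bone and 92.9 to 95.3 RPM in control bone (-1.27 for S100a9 and -0.61 for S100a8). Macrophage markers had 4 of 9 higher and 1 lower, with 498 to 534 RPM in knockout bone and 398 to 420 RPM in control bone (0.78 for Lyz2 and 0.48 for Cd68).

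Epidermis markers had sums above the controls in all 3 knockout libraries, with Lor at 9.65 ± 1.35 RPM in knockout bone and 2.69 ± 0.494 RPM in control bone. Trp63 of the same list had a lower mean in the knockout, at 9.47 ± 0.742 RPM against 11.4 ± 1.26 RPM (SD, n = 3 each). The list had 2 of 5 genes higher and 0 lower, with sums of 29.6 to 31.3 RPM in knockout bone and 18.3 to 22.7 RPM in control bone (-0.24 for Trp63 and 1.53 for Lor). Fibroblast markers had 2 of 8 higher and 2 lower, with 7180 to 7820 RPM in knockout bone and 5560 to 6230 RPM in control bone (0.49 for Col3a1 and 0.19 for Dcn). Tendon markers had 3 of 8 higher and 1 lower, with 4420 to 4830 RPM in knockout bone and 3530 to 3680 RPM in control bone (0.59 for Tnmd and 0.29 for Col11a1). Kera was the gene called lower (-0.30), and the median log2 difference of the 8 tested genes was 0.10. The Col11a1 call was lost in 1 of 17 alternatives, without a trend (limma adjusted p = 0.0729). Skeletal muscle markers had 3 of 10 lower, with 23800 to 25700 RPM in knockout bone and 26000 to 29500 RPM in control bone (-0.15 for Mylpf and 0.07 for Tnnt3). Endothelial markers had 2 of 9 lower, with 816 to 838 RPM in knockout bone and 807 to 847 RPM in control bone (0.21 for Pecam1 and -0.31 for Cdh5). The Cdh5 call was lost in 6 of 17 alternatives, including without knockout replicate 1, control replicate 1 or control replicate 2 (adjusted p of 0.00395 to 0.107 over all alternatives). Adipocyte markers had 1 of 5 lower, with 161 to 172 RPM in knockout bone and 171 to 197 RPM in control bone (-0.01 for Fabp4 and -0.32 for Cd36), and Lep had 0 reads throughout, unlike every other measured marker of these lists. Cd36 was the 1 adipocyte gene called, and its call was lost in 11 of 17 alternatives. These included TMM factors, edgeR, DESeq2 and leaving out knockout replicates 1 or 2 or control replicates 1 or 3. The Cd36 adjusted p, from limma, edgeR or DESeq2, ran from 0.0286 to 0.199 over all alternatives. Erythroid markers had 1 of 4 higher, with 168 to 170 RPM in knockout bone and 157 to 169 RPM in control bone (-0.09 for Tfrc and 0.27 for Alas2). Alas2 was the 1 erythroid gene called, and its call was lost in 8 of 17 alternatives. Among them were each knockout replicate left out and control replicates 2 or 3 left out. The Alas2 adjusted p, from limma, edgeR or DESeq2, ran from 0.0113 to 0.189 over all alternatives.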

How the data were processed

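Libraries were made from Trizol RNA with a SuperScript VILO kit and the Ion AmpliSeq mouse transcriptome panel, per the labels' protocols. The authors deposited RPM values for 23930 amplicons in 6 columns, and no source used here gives the aligner, counter or genome build. The deposited values above 0 were whole multiples of 1 read in 100% of cases within 0.1 read, a read being worth 0.0748 to 0.110 RPM. Read numbers without molecular identifiers cover counting error only.

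The 12846 amplicons averaging 1 RPM or more were analysed as log2(RPM + 1). Knockout and control were compared with limma 3.58.1 in R 4.3.3, with a trend and no block. All p-values are two-sided and Benjamini-Hochberg adjusted over those genes, and the threshold was 0.05. The procedure was tested on simulated data. Alternatives were other pseudocounts and filters, scaling by TMM, by median of ratios or by quantiles, no trend, a replicate block, each library left out, and edgeR 4.0.16 and DESeq2 1.42.0 on the recovered reads.

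Members, gene lists and tests were chosen with earlier results of these data known. Genes named were the 10 members, pathway genes past the threshold, 13 fixed receptors, carriers and enzymes (1 of them is not reported here), the 5 genes most correlated with Adh7, neighbours of the cluster past the threshold, Stat3, and the 2 most abundant markers of each cell type list. Positions are those of GENCODE M21 on GRCm38, matched by symbol, and coding sequences were built from its exons. Start regions came from RefSeq (GRCm38.p6), which matched 7 of the 10 members. Figures were drawn with matplotlib 3.10.9.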

Additional observations from a re-analysis of the deposited data

How the results depend on the processing

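Over 17 alternative settings, the 10 genes gave 168 differences, of which 159 moved by less than the spread between replicates and 9 by more. Adh1 (-0.07 to 0.08), Aldh1a1 (-0.04 to 0.29) and Cyp26b1 (-0.25 to 0.01) took both signs, and the other 7 kept theirs. Adh7 was lower under every setting in which it was tested, and its log2 difference ran from -3.01 to -1.10. It was not tested with a mean of at least 10 RPM, where 0 of the 10 genes passed and, of 9018 genes tested, 621 were higher and 1292 lower. The number of the 10 past the threshold was 3 with TMM factors and median-of-ratios factors (15.3% of all tested genes called in each) and edgeR (15.4%). It was 2 with quantile normalization and DESeq2 (14.4% in each) and the replicate block (19.2%). With a library left out it was 1 to 2, and the counts over all genes are given below. These counts are no evidence about the group, since its genes were chosen with this contrast known. Over all genes, 361 were higher and 634 lower without a trend. Lower genes numbered 869 with no filter on low values, 928 with TMM factors, 881 with median-of-ratios factors, 877 with quantile normalization, 922 with edgeR and 775 with DESeq2. With a library left out, 442 to 705 genes were higher and 729 to 1324 lower, the lowest counts being without control replicate 2. Without control replicate 1 the counts were 481 and 749, and without knockout replicate 2 they were 466 and 855. Of the other pathway genes, 3 were higher with TMM factors, median-of-ratios factors, edgeR and DESeq2, 2 with quantile normalization, and 1 to 2 with a library left out. Those lower numbered 2 without a trend and 0 to 5 with a library left out, the 0 being without control replicate 1. The cause of these shifts was not tested.

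The remaining named genes gave 760 differences, of which 670 kept direction and call, 43 lost the call, 17 gained it and 30 turned sign. No gene called at first turned sign. The Rara difference was 0.04 with TMM factors, median-of-ratios factors, edgeR and DESeq2, 0.01 with quantile normalization, and -0.11 to 0.03 with a library left out. That of Rxra was 0.05 with TMM factors, median-of-ratios factors and edgeR, 0.02 with quantile normalization, 0.06 with DESeq2, and -0.06 to 0.02 with a library left out. Col1a1 was at 0.0014 with TMM factors, 0.01 with median-of-ratios factors and DESeq2, 0.0026 with edgeR, and Fabp4 at 0.04 with TMM factors, 0.05 with median-of-ratios factors, edgeR and DESeq2, and 0.01 with quantile normalization, where Tnnt3 was at -0.01. Leaving out libraries gave -0.0031 to 0.18 for Rxrg, -0.37 to 0.06 for Stra6, -0.11 to 0.02 for Col1a1 and -0.05 to 0.04 for Fabp4. Whether the replicate numbers pair the samples is not known. Deviations of same-numbered libraries from their group means correlated at 0.01, -0.02 and 0.11, and those of other pairs at -0.10 to 0.10. With 3 libraries per group these values cannot settle it. With the replicate block, 836 genes were higher and 1626 lower. With 14 to 22 Adh7 reads per knockout library, counting limits the precision of its fold change. There are 3 libraries per group from 1 tissue and 1 age, and the amplicon reports 1 target per gene, so isoforms, protein and retinoic acid itself were not measured.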
